A study of Mus musculus with 60 samples.

Results

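Nfkbia and Tnfaip3 are the genes of the inhibitor IκBα and of the ubiquitin-editing enzyme A20, and their RNA was followed here in mouse ear fibroblasts at 4 temperatures with and without TNF-α or IL-1β. Both were taken by their symbols from the deposited expression table, 2 of its 10122 genes, as Nfkbia (ENSMUSG00000021025.8) and Tnfaip3 (ENSMUSG00000019850.11). IκBα holds NF-κB dimers in the cytoplasm. When TNF-α or IL-1β binds its receptor, the IKK kinase marks IκBα for degradation, NF-κB enters the nucleus, and Nfkbia is among the first genes it switches on, so that newly made IκBα returns NF-κB to the cytoplasm. A20 acts nearer the receptors, where it limits signalling through RIPK1 and TRAF6, and Tnfaip3 is likewise an NF-κB target. Both genes are therefore standard examples of negative feedback in the pathway.

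The cells were from 1 immortalised line of ear fibroblasts, named Immortalized Ear Fibroblast GR NLS-iRFP-NLS, which came from adult DKI mice and carries fluorescent reporters on the endogenous RelA and c-Rel, so every group has these reporters. After a night at 37 °C, dishes spent 2 h at 24, 34, 37 or 40 °C. They then received 10 ng/mL of recombinant murine TNF-α or IL-1β for 1 or 3 h, or were lysed without cytokine (0 h). This gives 20 groups of 3 libraries, which the labels call independent biological replicates, and 60 libraries in all. As they come from 1 line, p-values measure the spread between its cultures. Unstimulated cells had been at their temperature for 2 h when lysed and stimulated cells for 3 or 5 h, so time at the temperature differs between them too, and its part in the responses was not tested. All responses at a temperature share the same 3 unstimulated libraries.

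The promoters of both genes are shown for reference, and any link of their letters to the course of the genes was not tested. Each run is the 250 bases before the annotated start in RefSeq's table of build GRCm38.p6, printed 5′ to 3′ on the gene's strand. Nfkbia lies on the minus strand at chr12:55492648-55492897 and Tnfaip3, at the first of its annotated starts, on the minus strand at chr10:19015411-19015660. Capitals mark matches, on either strand, to the NF-κB site motif known as the κB consensus and to the 9 letters GGAATTTCC, which were added as a search after the promoters had been seen.
Nfkbia: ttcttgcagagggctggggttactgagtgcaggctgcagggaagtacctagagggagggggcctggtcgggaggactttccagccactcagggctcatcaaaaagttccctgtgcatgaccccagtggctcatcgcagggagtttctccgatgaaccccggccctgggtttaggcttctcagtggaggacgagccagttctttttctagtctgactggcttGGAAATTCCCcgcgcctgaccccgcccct
Tnfaip3: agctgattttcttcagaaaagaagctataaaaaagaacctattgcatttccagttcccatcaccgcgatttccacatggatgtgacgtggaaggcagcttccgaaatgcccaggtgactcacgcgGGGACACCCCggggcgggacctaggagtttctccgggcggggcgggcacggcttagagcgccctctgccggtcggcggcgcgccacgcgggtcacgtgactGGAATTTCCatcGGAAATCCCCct
In Nfkbia the capitals GGAAATTCCC lie 29 to 20 bases before the start, and they contain GGAATTTCC on the opposite strand. In Tnfaip3, GGGACACCCC lies 125 to 116 bases before the start, GGAATTTCC 24 to 16 and GGAAATCCCC 12 to 3. A κB consensus match is found in 3.9% of the 32851 windows of this length in the table, and GGAATTTCC in 0.286%. As GGAATTTCC was picked after both promoters had been seen, its share cannot tell how unusual its presence in both is. The window before the second annotated start of Tnfaip3 holds neither motif. These are matches of letters in a fixed window and not measured binding sites.

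Values are FPKM, fragments scaled to transcript length and to the mapped fragments of the library, which allows levels of genes of different length to be set side by side. The depth of each library, estimated from the steps between low FPKM values, was 3510000 to 7670000 fragments. It was 4571000 ± 508000 at 24 °C, 6701000 ± 606000 at 34 °C, 6346000 ± 538000 at 37 °C and 6395000 ± 771000 at 40 °C (SD, n = 15 libraries each). At that depth the library with the fewest fragments of Nfkbia held about 176 and that with the fewest of Tnfaip3 about 151, for counting errors of 7.53 and 8.14%. The labels number the 24 °C libraries after all the others, and if they were prepared apart this cannot be told apart from the temperature. All 7 fibroblast markers measured were at 36.3 FPKM or more in every library (Col1a1 at 843 to 1732, Vim at 1913 to 2929). The fibroblast marker Dcn, also sought, is absent from the expression table, as are some markers sought for other cell types, such as Krt5 and Ptprc. Of the markers of other cell types, the keratin gene Krt10 reached 4.13 FPKM, the macrophage genes Lyz2 and Cd68 4.60 and 2.93 and the endothelial gene Vwf 2.50, while the chondrocyte-associated Sox9 and Comp lay at 5.23 to 18.1 and 3.48 to 8.60 FPKM. In bulk RNA of this kind, fewer cells of a type and less RNA per cell cannot be told apart.

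Without cytokine, Nfkbia was at a similar level at every temperature and Tnfaip3 was higher in the cold. At 24, 34, 37 and 40 °C Nfkbia had 30.1, 39.2 and 28.6, then 26.6, 24.3 and 22.9, then 38.0, 29.2 and 25.3, and then 43.2, 34.4 and 24.1 FPKM in the 3 libraries of each temperature. The 4 ranges overlap, apart from 24 °C and 34 °C. Tnfaip3 had 12.6, 11.2 and 10.6 FPKM at 24 °C, 5.85, 5.04 and 6.09 at 34 °C, 7.18, 6.89 and 6.91 at 37 °C and 6.74, 5.69 and 7.80 at 40 °C. All 3 libraries at 24 °C lie above the 9 others.

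Changes are given as differences of log2(FPKM + 1), on which low levels understate a change, tested with limma over all 60 libraries and called at an adjusted p below 0.05 over all genes. The fit holds no term for the replicate number. With such a block the number of genes called rose by over 1.5 times in 17 of 79 comparisons. Relative to 37 °C, Tnfaip3 rose by 0.63 (SE 0.11, adjusted p = 1.67e-05) at 24 °C, a temperature at which 20.7% of all genes were called. Its differences at 34 °C (-0.27, adjusted p = 0.572) and 40 °C (-0.05, adjusted p = 0.891) were not called, where 0.366 and 4.14% of all genes were. Nfkbia differed from its 37 °C level by 0.09 at 24 °C, -0.30 at 34 °C and 0.11 at 40 °C (SE 0.13 each, limma's adjusted p 0.609 to 0.758). Limma called 0 of the 3, and 1, at 34 °C, had an unadjusted p under 0.05.

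After 1 h with TNF-α, both genes rose strongly at 34, 37 and 40 °C and little at 24 °C. Nfkbia had 58.4, 63.7 and 63.9 FPKM at 24 °C, 481, 527 and 513 at 34 °C, 462, 473 and 489.8 at 37 °C and 414, 413 and 428 at 40 °C. Tnfaip3 had 17.0, 18.1 and 19.3 FPKM at 24 °C, 211, 219 and 221 at 34 °C, 201, 202 and 214 at 37 °C and 125, 140.4 and 152 at 40 °C. For both genes the 3 libraries at 24 °C lie above the unstimulated ones of that temperature and far below every TNF-α library of the warmer temperatures at 1 h. Tnfaip3 at 40 °C also lies below all libraries of 34 and 37 °C.

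**Figure D1:**
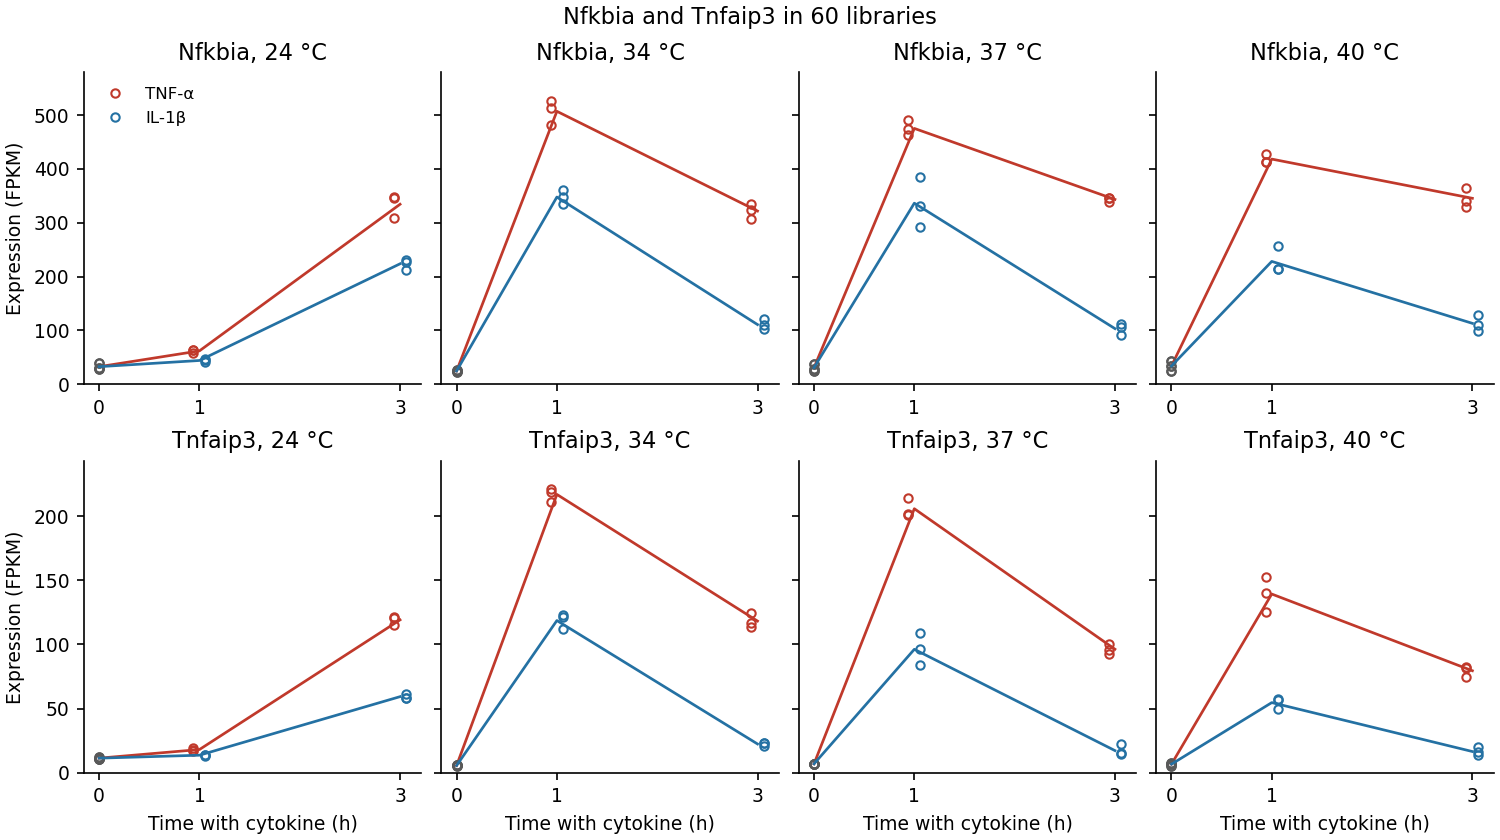
FPKM of Nfkbia (upper row) and Tnfaip3 (lower row) against hours with cytokine at 24, 34, 37 and 40 °C. Circles are libraries (grey without cytokine, red TNF-α, blue IL-1β) and lines join the means of 3; at 24 °C the higher level is at 3 h, and at the other temperatures at 1 h.

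Relative to unstimulated cells of the same temperature, the 1 h TNF-α response of Nfkbia was 0.92 at 24 °C, 4.31 at 34 °C, 3.92 at 37 °C and 3.62 at 40 °C on the log2 scale (SE 0.13, all adjusted p of 9.28e-06 or less). That of Tnfaip3 was 0.62, 5.04, 4.69 and 4.18 in the same order (SE 0.11, all adjusted p of 0.000818 or less). Of all genes 0.168, 1.72, 2.99 and 5.37% were called in these 4 comparisons. At 24 °C, where 17 genes in all were called, both genes were among them. Both 24 °C calls are lost when the groups compared are fitted alone, with adjusted p = 0.292 for Nfkbia and 0.358 for Tnfaip3.

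In mean FPKM the 1 h response to TNF-α was 1.90-fold at 24 °C, 20.6-fold at 34 °C, 15.4-fold at 37 °C and 12.3-fold at 40 °C for Nfkbia. For Tnfaip3 it was 1.59-fold, 38.3-fold, 29.4-fold and 20.7-fold. The response in the cold was smaller than at 37 °C for Nfkbia (24 °C minus 37 °C -3.00, SE 0.18, adjusted p = 1.72e-17) and for Tnfaip3 (-4.07, SE 0.15, adjusted p = 3.15e-25), in a comparison that called 1.7% of all genes. The responses at 34 °C (0.39 and 0.34 above that at 37 °C for Nfkbia and Tnfaip3) and at 40 °C (-0.30 and -0.51) did not pass the test of their difference from 37 °C, which 0.0593 and 0.138% of all genes passed.

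IL-1β for 1 h gave the same order of temperatures at lower levels. Nfkbia had 44.2, 40.9 and 47.2 FPKM at 24 °C, 348, 334 and 361 at 34 °C, 332, 293 and 384 at 37 °C and 215, 213 and 257 at 40 °C. Tnfaip3 had 14.1, 13.3 and 13.8 FPKM at 24 °C, 121, 112 and 123 at 34 °C, 96.2, 83.6 and 109 at 37 °C and 50.0, 56.6 and 57.6 at 40 °C. At 24 °C all 3 libraries of each gene lie just above the unstimulated range, and at 40 °C all 3 lie below those at 34 and 37 °C.

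The 1 h response to IL-1β at 24 °C was 0.43 for Nfkbia (adjusted p = 0.21) and 0.25 for Tnfaip3 (adjusted p = 0.563), neither of them called. It was 3.77, 3.42 and 2.75 for Nfkbia and 4.17, 3.60 and 2.85 for Tnfaip3 at 34, 37 and 40 °C, all called (adjusted p of 2.71e-22 or less). Of all genes 0.0494% were called at 24 °C, and 1.16, 1.88 and 3.16% at 34, 37 and 40 °C. The deficit at 24 °C against 37 °C was -2.98 for Nfkbia (adjusted p = 2.32e-17) and -3.35 for Tnfaip3 (adjusted p = 9.78e-22), where 0.84% of all genes passed.

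At 40 °C the 1 h IL-1β response of Tnfaip3 was 0.74 smaller than at 37 °C (-0.74, SE 0.15, adjusted p = 0.0126), and Nfkbia differed by -0.67 (adjusted p = 0.165). Only 0.128% of all genes were called in this comparison, against 0.0494% for 34 °C minus 37 °C, in which the members had 0.35 and 0.57 and were not called. The call for Tnfaip3 is lost when any of 4 of the 12 libraries is left out (37 °C IL-1β 1 h replicate 3, 40 °C unstimulated replicates 1 and 3, 40 °C IL-1β 1 h replicate 1), with values from -0.74 to -0.65 and adjusted p from 0.0523 to 0.0986, and when the compared groups are fitted alone (adjusted p = 0.523). The one for Nfkbia is gained without 37 °C unstimulated replicate 1 (adjusted p = 0.0353) or 40 °C unstimulated replicate 3 (adjusted p = 0.0026).

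A direct comparison of 40 °C with 34 °C was added after these values had been seen. The 1 h response to TNF-α was smaller at 40 °C by 0.69 for Nfkbia (-0.69, adjusted p = 0.0451) and by 0.85 for Tnfaip3 (-0.85, adjusted p = 0.000536), with 0.751% of all genes called. The 1 h response to IL-1β was smaller at 40 °C by 1.02 for Nfkbia (-1.02, adjusted p = 0.000555) and by 1.32 for Tnfaip3 (-1.32, adjusted p = 7.83e-08), with 0.593% called. At 3 h Tnfaip3 still differed, by -0.78 with TNF-α (adjusted p = 0.00138) and -0.64 with IL-1β (adjusted p = 0.016), where 2.06 and 1.46% of all genes were called, and Nfkbia did not pass (-0.31 and -0.39). The 1 h TNF-α call of Nfkbia is lost without any of 10 of the 12 libraries, all except 34 °C unstimulated replicate 1 and 40 °C unstimulated replicate 3 (-0.91 to -0.50 over the 12, adjusted p up to 0.346). The 3 h IL-1β call of Tnfaip3 is lost without 34 °C unstimulated replicate 2, 40 °C unstimulated replicate 3 or 40 °C IL-1β 3 h replicate 2 or 3 (adjusted p 0.0556 to 0.0835). With the compared groups fitted alone, 4 of these 6 calls are lost: both 1 h calls of Nfkbia (adjusted p = 0.479 with TNF-α and 0.202 with IL-1β), the 1 h TNF-α call of Tnfaip3 (0.105) and its 3 h IL-1β call (0.215).

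**Figure D2:**
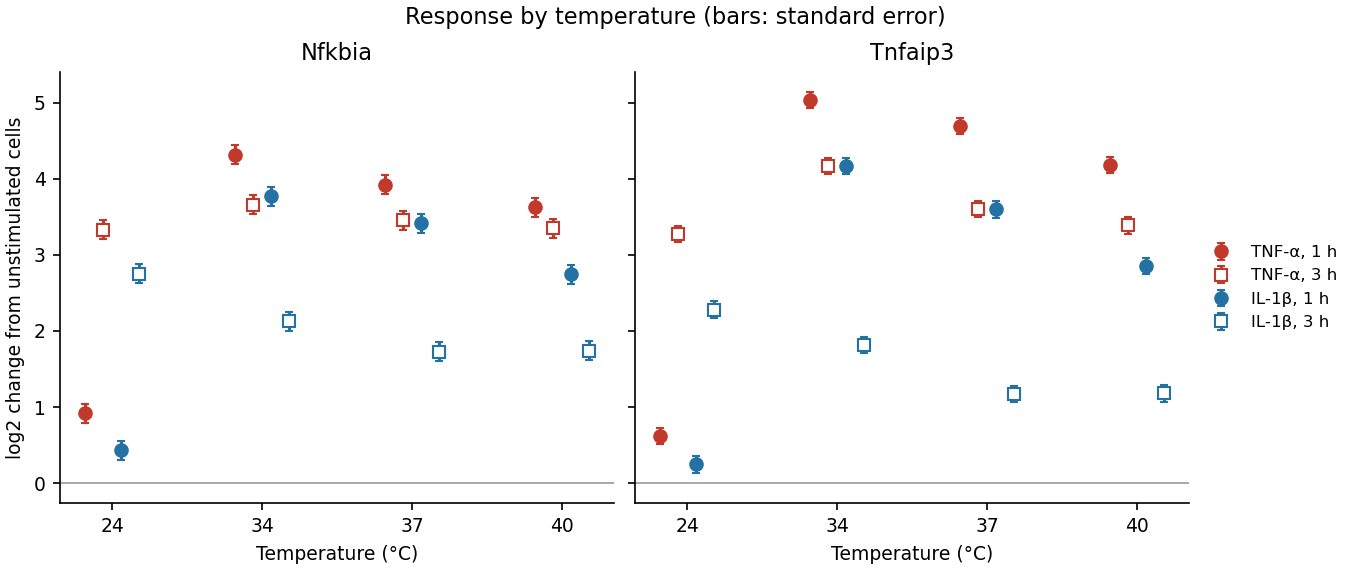
log2 change of FPKM + 1 from unstimulated cells of the same temperature (y) at 24, 34, 37 and 40 °C (x) for Nfkbia (left) and Tnfaip3 (right), with standard errors. At 24 °C the 1 h responses (filled circles) lie below 1 and the 3 h responses (open squares) above 2; at 34 to 40 °C the 1 h response is the larger for each cytokine.

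After 3 h with TNF-α the levels at 24 °C overlapped those at 37 °C for Nfkbia and lay above them for Tnfaip3. Nfkbia had 308, 348 and 346 FPKM at 24 °C, 323, 308 and 335 at 34 °C, 346, 338 and 346 at 37 °C and 365, 341 and 329.9 at 40 °C. Tnfaip3 had 115, 121 and 121 FPKM at 24 °C, 117, 124 and 114 at 34 °C, 100.02, 96.0 and 92.9 at 37 °C and 82.1, 81.5 and 75.0 at 40 °C. The libraries of Nfkbia at 24 °C overlap those of every other temperature. For Tnfaip3 those at 24 °C overlap the ones at 34 °C and lie above all those at 37 and 40 °C.

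The 3 h response to TNF-α was 3.33, 3.66, 3.45 and 3.35 for Nfkbia and 3.28, 4.16, 3.61 and 3.39 for Tnfaip3 at 24, 34, 37 and 40 °C, all called (adjusted p of 2.32e-25 or less). Of all genes 2.42, 12.6, 14.0 and 19.3% were called. Against 37 °C the 3 h response at 24 °C differed by -0.13 for Nfkbia (95% interval -0.48 to 0.23, adjusted p = 0.779) and -0.33 for Tnfaip3 (-0.63 to -0.03, adjusted p = 0.205), so the deficit seen at 1 h was not detected at 3 h, in a comparison where 7.92% of all genes were called. The 40 °C response differed by -0.11 and -0.22, not called, with 0.306% of all genes called. At 34 °C the differences were 0.20 and 0.56 (adjusted p = 1 and 0.33), and limma called 0% of all genes, with 532 at an unadjusted p under 0.05.

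After 3 h with IL-1β both genes were highest in the cold. Nfkbia had 227, 231 and 213 FPKM at 24 °C, 109, 103 and 120.5 at 34 °C, 107, 92.0 and 111 at 37 °C and 129, 99.6 and 110.4 at 40 °C. Tnfaip3 had 58.0, 58.6 and 61.5 FPKM at 24 °C, 23.4, 20.7 and 23.4 at 34 °C, 22.2, 14.5 and 15.3 at 37 °C and 19.8, 13.8 and 16.2 at 40 °C. All 24 °C libraries of both genes lie above all 9 warmer ones, and the warmer groups overlap each other, except 34 and 40 °C for Tnfaip3.

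The 3 h response to IL-1β was 2.75, 2.13, 1.73 and 1.74 for Nfkbia and 2.28, 1.82, 1.17 and 1.18 for Tnfaip3, from 24 to 40 °C, all called (adjusted p of 1.25e-11 or less), with 1.42, 5.28, 4.35 and 8.65% of all genes called. The 37 °C call of Tnfaip3 has an adjusted p of 0.0511 when its groups are fitted alone. The response at 24 °C exceeded that at 37 °C by 1.02 for Nfkbia (SE 0.18, adjusted p = 0.000145, or 0.0525 with the compared groups fitted alone) and by 1.11 for Tnfaip3 (SE 0.15, adjusted p = 1.55e-06), where 2.28% of all genes passed. At 40 °C the differences from 37 °C were 0.01 for both genes, with 0.188% of all genes called. At 34 °C they were 0.40 and 0.65 (adjusted p = 1 and 0.16), with 0% of all genes called by limma and 480 at an unadjusted p under 0.05. Without 37 °C IL-1β 3 h replicate 1, the 34 °C difference of Tnfaip3 is 0.83 and is called (adjusted p = 0.00354).

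As levels rather than responses, cells with TNF-α for 1 h at 24 °C stood 2.92 lower than those at 37 °C for Nfkbia (-2.92, adjusted p = 4e-23) and 3.43 lower for Tnfaip3 (-3.43, adjusted p = 1.78e-28), and with IL-1β for 1 h -2.90 and -2.71. After 3 h with IL-1β they stood 1.11 higher for Nfkbia (adjusted p = 2.33e-09) and 1.74 higher for Tnfaip3 (adjusted p = 2.33e-17). After 3 h with TNF-α Tnfaip3 was 0.30 higher (adjusted p = 0.0264) and Nfkbia differed by -0.04. Of all genes 28.3% (TNF-α 1 h), 28.5% (TNF-α 3 h), 21.9% (IL-1β 1 h) and 25.5% (IL-1β 3 h) were called between 24 and 37 °C. The TNF-α 3 h call of Tnfaip3 is lost without 37 °C replicate 2 or 3 or 24 °C replicate 2 or 3 (adjusted p 0.0595 to 0.084).

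Cells at 40 °C had less of both RNAs than those at 37 °C after 1 h with IL-1β, by 0.55 for Nfkbia (-0.55, adjusted p = 0.00433) and 0.80 for Tnfaip3 (-0.80, adjusted p = 5.74e-07), and less Tnfaip3 after 1 h with TNF-α (-0.56, adjusted p = 0.000387). These 3 calls are lost when the compared groups are fitted alone (adjusted p 0.0622 to 0.164), and that of Nfkbia also without 37 °C IL-1β 1 h replicate 3 (-0.45, adjusted p = 0.0601). The other 40 °C levels were not called, and of all genes 5.55, 6.35, 4.2 and 4.8% were called in the order TNF-α 1 h, TNF-α 3 h, IL-1β 1 h and IL-1β 3 h. Between 34 and 37 °C limma called 0 of the 8 stimulated levels of the genes, with 3 at an unadjusted p under 0.05, where 0.316, 1.75, 0.247 and 1.57% of all genes were. There Tnfaip3 after 3 h with IL-1β differed by 0.38 (adjusted p = 0.0513), a value that passes without 37 °C replicate 1 (0.56, adjusted p = 0.00308).

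Both RNAs were lower at 3 h than at 1 h at the 3 warmer temperatures and higher at 24 °C. With TNF-α, the mean level of Nfkbia at 3 h was 539% of that at 1 h at 24 °C, 63.5% at 34 °C, 72.2% at 37 °C and 82.6% at 40 °C. That of Tnfaip3 was 656, 54.5, 46.8 and 57.1%. With IL-1β it was 507, 31.9, 30.7 and 49.6% for Nfkbia and 432, 19.0, 18.0 and 30.3% for Tnfaip3. In none of these 16 cases do the libraries of 1 h and 3 h overlap, but the share of all genes separated in this way was not counted.

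The change with TNF-α was 2.41, -0.65, -0.47 and -0.28 for Nfkbia from 24 to 40 °C (SE 0.13), called at 24, 34 and 37 °C (adjusted p = 1.82e-19, 0.000242 and 0.0105) and not at 40 °C (adjusted p = 0.141). The 37 °C call is lost without 37 °C TNF-α 1 h replicate 3 (-0.45, adjusted p = 0.0512). For Tnfaip3 it was 2.65, -0.87, -1.09 and -0.80 (SE 0.11, adjusted p of 3.27e-07 or less). Of all genes 1.4, 6.49, 8.51 and 14.3% were called. With IL-1β it was 2.32, -1.64, -1.69 and -1.01 for Nfkbia (adjusted p of 1.03e-07 or less) and 2.03, -2.35, -2.42 and -1.67 for Tnfaip3 (adjusted p of 2.88e-16 or less), with 0.435, 2.1, 2.68 and 5.25% of all genes called.

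The course at 24 °C differed from that at 37 °C by 2.88 for Nfkbia and 3.74 for Tnfaip3 with TNF-α (SE 0.18 and 0.15, adjusted p = 8.89e-17 and 1.07e-23). With IL-1β it differed by 4.01 and 4.46 (adjusted p = 1.82e-22 and 6.71e-27). These comparisons called 6.85 and 2.11% of all genes. At 40 °C the fall of Tnfaip3 with IL-1β was smaller than at 37 °C by 0.75 (SE 0.15, adjusted p = 0.0199), one of 0.0889% of all genes called, and Nfkbia had 0.68 (adjusted p = 0.17). That call of Tnfaip3 is lost without any of 6 of its 12 libraries: replicates 1 and 3 of 37 °C IL-1β 1 h, replicates 2 and 3 of 37 °C IL-1β 3 h, and replicate 1 of 40 °C IL-1β 1 h and of 40 °C IL-1β 3 h (0.62 to 0.74, adjusted p 0.0569 to 0.158), and with the compared groups fitted alone (adjusted p = 0.602). With TNF-α the 40 °C course differed by 0.19 and 0.29, not called, with 0.366% of all genes called. At 34 °C the course differed by -0.19 and 0.22 after TNF-α and by 0.05 and 0.07 after IL-1β. There limma called 0% of all genes with TNF-α, with 443 at an unadjusted p under 0.05, and 0.00988% with IL-1β.

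**Figure D3:**
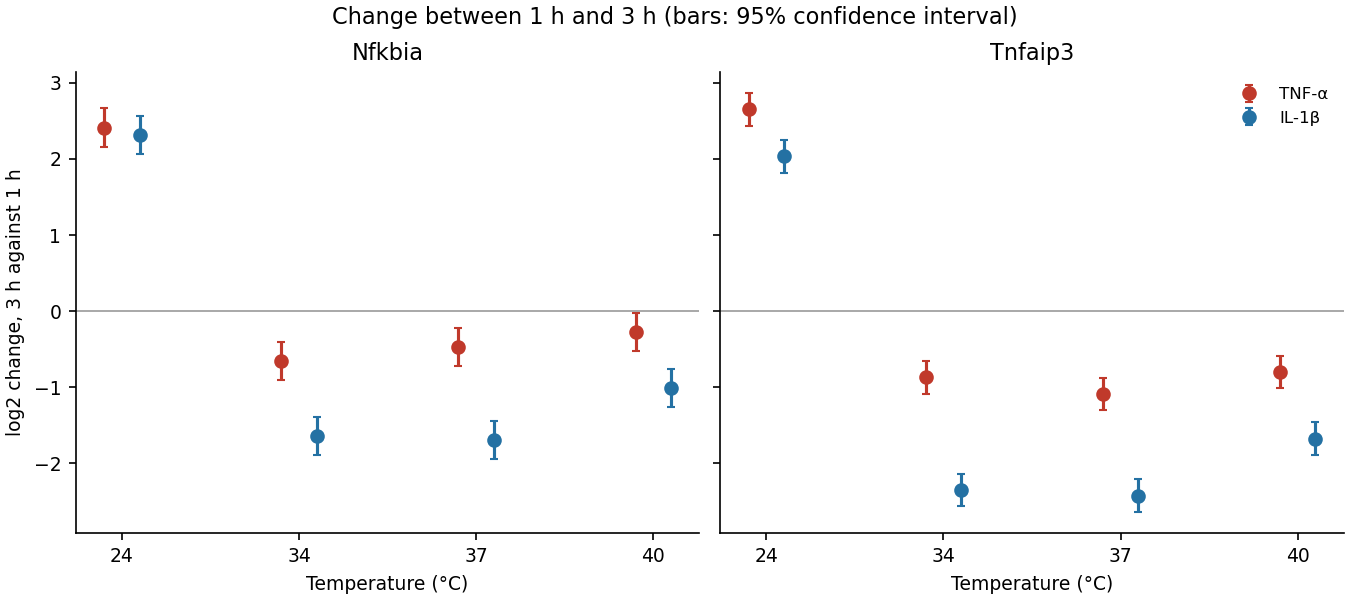
log2 change of FPKM + 1 from 1 h to 3 h with TNF-α (red) or IL-1β (blue) against temperature, with 95% confidence intervals, for Nfkbia (left) and Tnfaip3 (right). All values at 24 °C are above 2 and all others below 0; at 34 to 40 °C the IL-1β value lies below that of TNF-α.

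The fall between 1 and 3 h was steeper with IL-1β than with TNF-α at 34, 37 and 40 °C, a comparison added after the values had been seen. The TNF-α course minus the IL-1β course was 0.99, 1.22 and 0.73 for Nfkbia (adjusted p = 0.000816, 3.17e-05 and 0.0183) and 1.48, 1.34 and 0.88 for Tnfaip3 (adjusted p = 9.83e-09, 2.06e-07 and 0.000414) at those temperatures. Of all genes 0.306, 0.869 and 1.28% were called. At 24 °C the difference was 0.09 for Nfkbia and 0.62 for Tnfaip3 (adjusted p = 0.966 and 0.217), where 0.0198% of all genes passed. The 40 °C call of Nfkbia is lost without TNF-α 3 h replicate 1, IL-1β 1 h replicate 3 or IL-1β 3 h replicate 2 or 3 (0.65 to 0.72, adjusted p 0.0519 to 0.0906), and both 40 °C calls when the compared groups are fitted alone (adjusted p = 0.0559 and 0.0568).

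TNF-α gave more of both RNAs than IL-1β at every temperature and time, by group means. After 1 h the difference of TNF-α minus IL-1β for Tnfaip3 was 0.38 at 24 °C (adjusted p = 0.381), 0.87 at 34 °C, 1.10 at 37 °C and 1.33 at 40 °C (adjusted p of 2.32e-06 or less at the last 3). For Nfkbia it was 0.48, 0.54, 0.51 and 0.88, called at 40 °C (adjusted p = 1.39e-05) and not at 24, 34 and 37 °C (adjusted p = 0.278, 0.0605 and 0.101). The Nfkbia libraries of the cytokines do not overlap at any temperature, but the share of all genes separated in this way was not counted. Of all genes 0.0296, 0.109, 0.148 and 0.227% were called. The 37 °C value of Nfkbia passes without IL-1β 1 h replicate 3 (0.61, adjusted p = 0.0379), and the 40 °C call is lost with its groups fitted alone (adjusted p = 0.089).

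After 3 h the difference was 0.58, 1.53, 1.73 and 1.61 for Nfkbia and 0.99, 2.34, 2.43 and 2.21 for Tnfaip3, all called, with 0.0889, 2.42, 4.14 and 5.56% of all genes called. The call of Nfkbia at 24 °C (adjusted p = 0.0447) is lost without any 1 of its 6 libraries (0.54 to 0.63, adjusted p 0.0536 to 0.186) and with its groups fitted alone (adjusted p = 0.149). In mean FPKM, TNF-α at 3 h gave 1.49-fold the Nfkbia of IL-1β at 24 °C, 2.90-fold at 34 °C, 3.32-fold at 37 °C and 3.05-fold at 40 °C. For Tnfaip3 the same ratio was 2.01-fold, 5.26-fold, 5.55-fold and 4.79-fold.

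The cytokines were closer together in the cold. The 3 h gap at 24 °C was smaller than at 37 °C by 1.15 for Nfkbia (-1.15, adjusted p = 2.89e-05) and by 1.44 for Tnfaip3 (-1.44, adjusted p = 5.85e-09), with 1.53% of all genes called. At 1 h Tnfaip3 had -0.72 (adjusted p = 0.039) and Nfkbia -0.02 (adjusted p = 1), with 0.0494% called. The Tnfaip3 call at 1 h is lost without any of 10 of its 12 libraries, all except 37 °C IL-1β 1 h replicate 3 and 24 °C TNF-α 1 h replicate 3 (-0.81 to -0.62, adjusted p up to 0.262 where lost). It is lost as well with a pseudocount of 0.1, rescaled libraries, no mean-variance trend or the compared groups fitted alone (adjusted p 0.0611 to 0.195). At 34 and 40 °C the gaps differed from those at 37 °C by -0.23 to 0.37 at 1 h and -0.22 to -0.09 at 3 h, and limma called 0% of all genes in these 4 comparisons. At an unadjusted p under 0.05 there were 241 genes for 34 °C and 419 for 40 °C at 1 h, and 342 and 347 at 3 h.

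The balance between the genes also moved. Tnfaip3 stood at 43.5, 42.6 and 43.8% of the FPKM of Nfkbia in the same library after 1 h with TNF-α at 37 °C, and at 20.8, 15.7 and 13.7% after 3 h with IL-1β. With either cytokine the share was lower at 3 h than at 1 h at 34, 37 and 40 °C. With the 12 libraries of a cytokine and time taken over all 4 temperatures, the log2 ratio of Tnfaip3 to Nfkbia was lower at 3 h than at 1 h by 0.60 with IL-1β (-2.34 ± 0.347 against -1.75 ± 0.210, difference -0.60, adjusted p = 6e-05). With TNF-α the difference was -0.28 (-1.71 ± 0.292 against -1.43 ± 0.241, SD, adjusted p = 0.00512), made of 0.24 at 24 °C, -0.22 at 34 °C, -0.62 at 37 °C and -0.52 at 40 °C. It has an adjusted p of 0.0575 without replicate 3 of every group (-0.23).

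TNF-α gave the higher ratio at both times, by 0.32 at 1 h (adjusted p = 0.00084) and by 0.63 at 3 h (adjusted p = 6e-05). At 24 °C the 1 h difference was -0.11, and the other 7 differences lie between 0.32 and 0.81. These are two-sided permutation tests within temperatures with 100000 resamples, adjusted over the 4 tests. Without cytokine the share scattered most at 40 °C, at 15.6 to 32.4% over its 3 libraries.

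**Figure D4:**
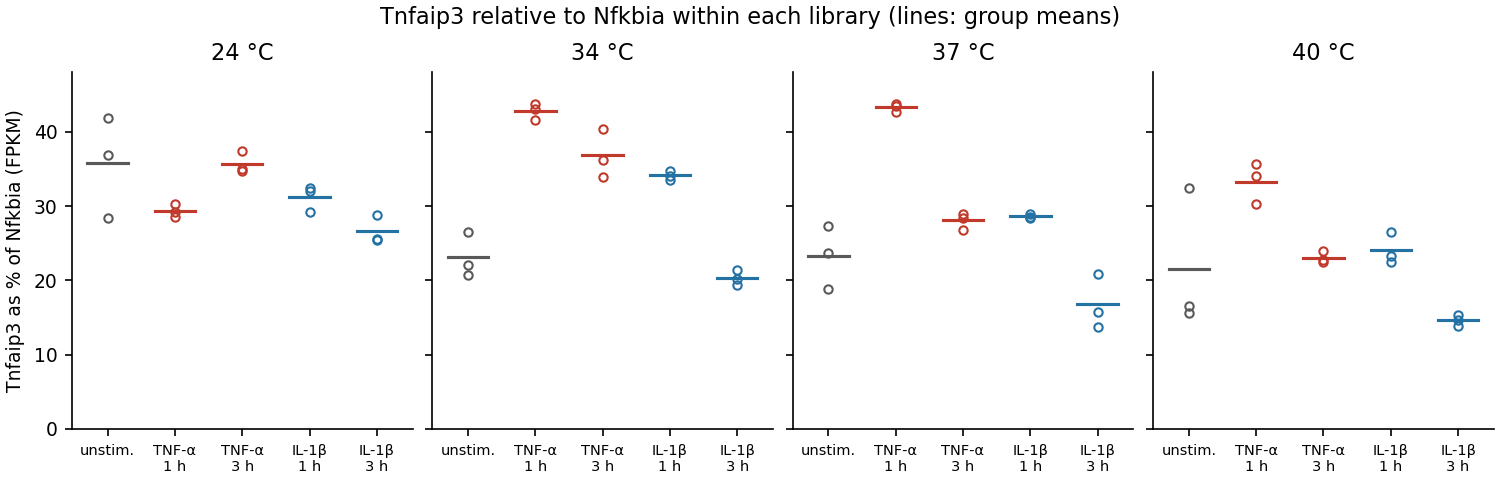
Tnfaip3 as a percentage of Nfkbia, both in FPKM, in each library (circles) with group means of 3 (lines), by temperature and treatment. The means run between 14.6% (40 °C, IL-1β 3 h) and 43.3% (37 °C, TNF-α 1 h); at 34 to 40 °C each 3 h mean lies below the 1 h mean of the same cytokine.

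Ordered by mean, the 20 groups began the same way for both genes. Nfkbia was highest after 1 h with TNF-α at 34 °C (507 ± 23.3 FPKM), whose libraries overlap those at 37 °C (475 ± 13.9), and then at 40 °C (418 ± 8.38), which stood clear of both. A run of 6 groups followed, from IL-1β 1 h at 34 °C (348 ± 13.5) to TNF-α 3 h at 34 °C (322 ± 13.6), in which each overlaps the next. The lowest 5 were IL-1β 1 h at 24 °C (44.1 ± 3.18) and the 4 unstimulated groups (33.9 ± 9.59 at 40 °C down to 24.6 ± 1.85 at 34 °C), each overlapping the next.

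Tnfaip3 too was highest after 1 h with TNF-α at 34 °C (217 ± 5.53 FPKM), which overlaps 37 °C (206 ± 7.55) and not 40 °C (139 ± 13.7). TNF-α 3 h at 24 °C (119 ± 3.31) was the fourth, overlapping IL-1β 1 h (119 ± 6.00) and TNF-α 3 h (118 ± 5.42) at 34 °C. Its lowest groups were the unstimulated ones at 37, 40 and 34 °C (6.99 ± 0.162, 6.74 ± 1.06 and 5.66 ± 0.550), which overlap in that order, and the unstimulated group at 24 °C (11.4 ± 1.05) stood apart above them (SD, n = 3 throughout).

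Of 6 further IκB-family genes listed, Bcl3, Nfkbib and Nfkb1 were measured. Bcl3 encodes a nuclear IκB protein, Nfkbib the inhibitor IκBβ, and Nfkb1 the precursor p105, whose C-terminal part acts as an IκB. All 3 rose at 37 °C after 1 h with TNF-α (3.02, 1.00 and 0.73) and with IL-1β (2.82, 1.00 and 0.57). Beside them 2.30 and 1.57% of all genes rose.

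Between 1 and 3 h with TNF-α, Nfkbib and Nfkb1 rose further, by 1.15 and 0.99 at 34 °C, 1.16 and 0.98 at 37 °C and 0.69 and 0.66 at 40 °C, over the interval in which Nfkbia fell or was not called. Bcl3 was not called there (0.07, 0.04 and -0.07). With IL-1β, Nfkb1 rose by 0.77, 0.50 and 0.37 at 34, 37 and 40 °C, while Nfkbib (0.50, 0.19 and 0.14) and Bcl3 (-0.26, -0.43 and -0.64) were not called. At 24 °C Bcl3 rose between 1 and 3 h, as Nfkbia and Tnfaip3 did, by 1.02 with TNF-α (adjusted p = 0.00365) and 0.98 with IL-1β (adjusted p = 0.0127). Nfkbib (0.05 and 0.18) and Nfkb1 (-0.19 and -0.02) were not called there. The median over the 3 genes was 0.98 at 37 °C, against 0.00145 over all genes.

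At 24 °C and 3 h, the responses of Nfkb1 were -0.19 (TNF-α) and -0.10 (IL-1β) and those of Nfkbib 0.07 and 0.16, with no call among the 4, while Bcl3 rose by 0.89 and 0.84 (adjusted p = 0.0107 and 0.0269). These comparisons called 2.42 and 1.42% of all genes. In mean FPKM, Nfkb1 stood at 24.3 ± 2.47 after 3 h with TNF-α at 24 °C, against 27.8 ± 1.35 in unstimulated cells there. At 37 °C it stood at 90.8 ± 14.3, against 27.0 ± 0.990 (SD, n = 3). The 3 h responses of all 3 genes were smaller at 24 °C than at 37 °C with TNF-α (-2.17, -2.08 and -1.90 for Bcl3, Nfkbib and Nfkb1) and with IL-1β (-1.55, -1.03 and -1.18), beside 4.1 and 1.23% of all genes with a called difference in this direction, where those of Nfkbia and Tnfaip3 were not called or larger.

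Of 10 listed partners of A20 and related deubiquitinases, 8 were measured. With TNF-α at 37 °C, 2 rose and 0 fell at 1 h, beside 2.30% of all genes that rose and 0.692% that fell. At 3 h, 3 rose and 0 fell, beside 6.55 and 7.46%. Tnip1, whose protein ABIN1 binds A20, rose by 0.98 at 1 h and 2.65 at 3 h at 37 °C, and by 1.64 and 2.87 at 40 °C. It rose between 1 and 3 h with TNF-α at 34, 37 and 40 °C (1.71, 1.67 and 1.22), where Tnfaip3 fell. At 24 °C Tnip1 had 0.42 at 3 h with TNF-α and 0.48 with IL-1β, neither called.

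Spata2, which links the deubiquitinase CYLD to its receptor complex, rose by 0.79 and Cyld by 0.40 after 3 h with TNF-α at 37 °C. Limma called Tnip2 in 0 of the 16 responses, with 0 at an unadjusted p under 0.05 and values of -0.40 to 0.32. The 16 responses called 0.0494% (IL-1β 1 h, 24 °C) to 19.3% (TNF-α 3 h, 40 °C) of all genes. At 24 °C limma made 0 calls in the 32 tests of the 8 genes and 4 responses, with 3 at an unadjusted p under 0.05. Of all genes 0.168% (TNF-α 1 h), 2.42% (TNF-α 3 h), 0.0494% (IL-1β 1 h) and 1.42% (IL-1β 3 h) were called there, shares at which a list of this size would hold few calls or none. The median of the 8 genes was 0.10 after 3 h with TNF-α, against -0.03 over all genes.

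Upstream, 23 of 28 listed receptor, adaptor and kinase genes were measured. After TNF-α at 37 °C, 3 rose at 1 h and 6 rose and 1 fell at 3 h, beside 2.30% of all genes that rose at 1 h and 6.55% that rose and 7.46% that fell at 3 h. The median response of the 23 at 3 h was 0.06, against -0.04 over all genes. The ubiquitin ligase genes Birc3 and Birc2 had the strongest responses of the named ones, at 2.13 and 1.09 after 1 h and 2.53 and 1.55 after 3 h with TNF-α at 37 °C. At 24 °C after 3 h with TNF-α, Birc2 rose by 0.81 (adjusted p = 0.00853) and Birc3 had 0.87 (adjusted p = 0.122).

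Tnfrsf1b, the gene of TNF receptor 2, went opposite ways. After 3 h with TNF-α it fell by 0.53 at 24 °C (-0.53, adjusted p = 0.00111) and rose by 1.09, 0.76 and 0.77 at 34, 37 and 40 °C. With IL-1β it fell by 0.47 at 24 °C (-0.47, adjusted p = 0.00741) and rose by 0.99, 0.52 and 0.70. The difference of 24 °C minus 37 °C was -1.29 with TNF-α (adjusted p = 9.69e-09) and -0.98 with IL-1β (adjusted p = 1.84e-05). Myd88, the adaptor of the IL-1 receptor, rose by 0.63 after 3 h with TNF-α at 37 °C. Limma called it in 0 of the 8 IL-1β responses, with 5 at an unadjusted p under 0.05 (-0.04 to 0.43). Those responses called 0.0494% (1 h, 24 °C) to 8.65% (3 h, 40 °C) of all genes.

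**Figure D5:**
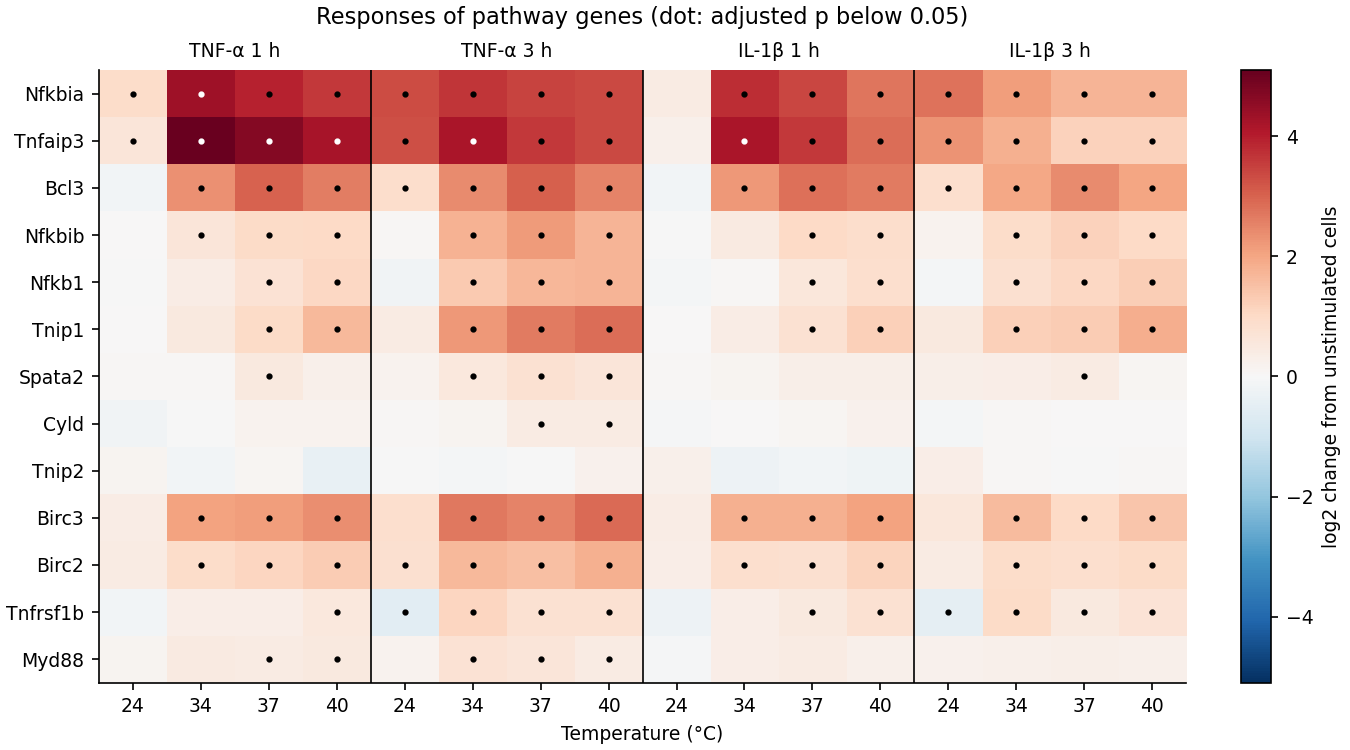
log2 change of FPKM + 1 from unstimulated cells (colour) of Nfkbia, Tnfaip3 and the named genes of the 3 lists (rows) after 1 or 3 h with TNF-α or IL-1β at each temperature (columns). Dots mark calls. At 24 °C and 3 h both members carry dots with either cytokine, as do Bcl3 and, for a fall, Tnfrsf1b. Birc2 carries one there with TNF-α only, while Nfkbib, Nfkb1 and Tnip1 carry none.

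Of the 7472 other genes that averaged 5 FPKM or more in some group, those with a course across the 20 group means most like Nfkbia were Cxcl2, Gem, Pnrc1, Irf1 and Spty2d1 (Pearson r = 0.958, 0.954, 0.940, 0.927 and 0.925). Those most like Tnfaip3 were Gem, Cxcl2, Slc25a25, Irf1 and Dusp8 (r = 0.983, 0.979, 0.950, 0.946 and 0.934). The members had r = 0.975 with each other. These are descriptions over 20 means of log2(FPKM + 1), which share unstimulated groups and libraries. Cxcl2, a neutrophil chemokine, averaged 42.4 ± 2.33 FPKM after 3 h with TNF-α at 24 °C and 37.3 ± 7.53 after 1 h at 34 °C, its highest means. Irf1, a transcription factor of the interferon system, averaged 39.8 ± 8.34 FPKM after 3 h with TNF-α at 24 °C and 115 ± 14.7 after 1 h at 37 °C (SD, n = 3).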

How the data were processed

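RNA-seq expression was measured in 60 libraries of 20 groups. The values deposited by the authors are FPKM for 10122 genes, and each gene reaches 1 FPKM in at least 4 libraries. Per the submitters' processing notes, STAR 2.7.11b, RSEM 1.3.3, edgeR and build GRCm39 were used, in no stated order. All 10122 identifiers, versions included, are found in GENCODE M21, where no other gene overlaps Nfkbia or Tnfaip3; whether counting used strand is not given in the sources used here.

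FPKM plus a pseudocount of 1 was put on the log2 scale. Limma 3.58.1 (R 4.3.3) was fitted to all 60 libraries with 1 mean per group, a mean-variance trend and 40 residual degrees of freedom. Tests are two-sided, with Benjamini-Hochberg adjustment over all genes within each of 71 planned and 8 added comparisons. The limma fit without a block was tested on simulated data, and the other steps were not. The ratio was tested by permutation (Python 3.11.15). Alternatives were another pseudocount, rescaled libraries, a replicate block, a 5 FPKM filter, no trend, the compared groups alone and leaving out each library. Depth was estimated from 191 single-transcript genes, in which 80.0 to 94.1% of low values lay within 0.15 of a whole fragment number. It covers counting error only.

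The genes, lists and comparisons were chosen with earlier results of these data known. Of each list, the measured genes were counted and up to 4 with the largest mean absolute response were named. For likeness, the 5 genes with the highest Pearson r to each member were named.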

Additional observations from a re-analysis of the deposited data

Results flagged for a closer look

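A tested difference between temperatures or between cytokines marks the following results, all as differences of log2(FPKM + 1). The 1 h response at 24 °C minus that at 37 °C was -3.00 for Nfkbia and -4.07 for Tnfaip3 with TNF-α, and -2.98 and -3.35 with IL-1β. The 3 h response to IL-1β differed in the other direction, by 1.02 and 1.11. The change between 1 and 3 h differed between 24 and 37 °C by 2.88 for Nfkbia and 3.74 for Tnfaip3 with TNF-α, and by 4.01 and 4.46 with IL-1β.

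At 40 °C minus 37 °C, Tnfaip3 with IL-1β had -0.74 in its 1 h response and 0.75 in its change between 1 and 3 h. At 40 °C minus 34 °C, the 1 h response to TNF-α differed by -0.69 for Nfkbia and -0.85 for Tnfaip3, and the 1 h response to IL-1β by -1.02 and -1.32. Tnfaip3 also differed at 3 h, by -0.78 with TNF-α and -0.64 with IL-1β.

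The gap of TNF-α over IL-1β at 24 °C minus that at 37 °C was -0.72 for Tnfaip3 at 1 h, and -1.15 for Nfkbia and -1.44 for Tnfaip3 at 3 h. The change between 1 and 3 h with TNF-α minus that with IL-1β was 0.99 and 1.48 at 34 °C, 1.22 and 1.34 at 37 °C and 0.73 and 0.88 at 40 °C for Nfkbia and Tnfaip3. Each difference passed limma's test over all 60 libraries at an adjusted p below 0.05. Of them, -0.74, 0.75, -0.72, -0.64 and the Nfkbia differences of -0.69 and 0.73 lose that call without some single libraries. Each of these also loses it with the compared groups fitted alone. Other losses under alternatives are given with the processing. Groups of 3 libraries were too small for a search for single outlying libraries.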

How the results depend on the processing

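Of 71 planned and 8 added comparisons, fits with a pseudocount of 0.1, rescaled libraries, a replicate block, a 5 FPKM filter or no mean-variance trend changed the following calls, on the log2(FPKM + 1) scale and with limma. No label says what a replicate number marks, and the planned main fit held no block, so the block is an alternative. At 34 to 40 °C mean r was 0.0556 for same-numbered pairs of libraries (-0.0695 to 0.223, 315 pairs) and -0.0278 for others. There all 45 libraries correlated best with their own number and all 15 groups had size factors in the order replicate 2, 1, 3. Same-numbered libraries thus share variation at these temperatures, which the main fit leaves in its spread. At 24 °C mean r was 0.0293 and -0.0145, and 10 of 15 libraries correlated best with their own number. The replicate block added a call for Tnfaip3 after 3 h with IL-1β at 34 against 37 °C (0.38, adjusted p = 0.0295), as did the block nested in the 24 °C and the other libraries (0.0264) and the filter (0.0416). The nested block and the filter also added TNF-α against IL-1β for Nfkbia at 1 h and 34 °C (0.54, adjusted p = 0.0434 and 0.0462). With the nested block Tnfaip3 after 3 h with TNF-α at 24 against 37 °C was not called (0.27, adjusted p = 0.0654). That fit takes 24 °C levels at replicate 1 and warmer levels at replicate 3. Its value is therefore not the difference of the group means (0.30) and cannot decide whether that call holds. Lost with rescaled libraries and with no trend were TNF-α against IL-1β for Nfkbia at 3 h and 24 °C (0.59 and 0.58, adjusted p = 0.0516 and 0.0696), that gap for Tnfaip3 at 1 h at 24 minus 37 °C (-0.72 in both, adjusted p = 0.0775 and 0.0611) and the Nfkbia 1 h response to TNF-α at 40 minus 34 °C (-0.68 and -0.69, adjusted p = 0.0636 and 0.0661). The pseudocount lost the last 2 as well (-0.70 in both, adjusted p = 0.087 and 0.0501). No setting other than leaving out a library reversed a direction. Apart from that of the nested block at 24 against 37 °C, the cause of these changes was not tested.

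Fits on the compared groups alone, with fewer libraries, kept the directions and lost 18 calls: 1 h with TNF-α at 24 °C (0.92 and 0.62 for Nfkbia and Tnfaip3), Tnfaip3 3 h with IL-1β at 37 °C (1.17), Tnfaip3 1 h with IL-1β at 40 minus 37 °C (-0.74) and its 3 h minus 1 h change (0.75), Nfkbia 3 h with IL-1β at 24 minus 37 °C (1.02), levels at 40 against 37 °C (Tnfaip3 -0.56 at 1 h with TNF-α, Nfkbia -0.55 and Tnfaip3 -0.80 at 1 h with IL-1β), TNF-α against IL-1β (Nfkbia 0.88 at 1 h and 40 °C, 0.58 at 3 h and 24 °C, Tnfaip3 -0.72 at 1 h, 24 minus 37 °C), the change with TNF-α minus that with IL-1β at 40 °C (0.73 and 0.88), and 40 minus 34 °C (Nfkbia -0.69 and Tnfaip3 -0.85 with TNF-α and Nfkbia -1.02 with IL-1β at 1 h, Tnfaip3 -0.64 with IL-1β at 3 h). Adjusted p lay between 0.0511 and 0.602.

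Leaving out 1 library gave reversed values only where no call was made: for Nfkbia, unstimulated 24 and 40 against 37 °C (-0.049 to 0.24 and -0.076 to 0.33), TNF-α 3 h response at 24 and 40 minus 37 °C (-0.28 to 0.0092 and -0.33 to 0.083), TNF-α 3 h level at 24 and 40 against 37 °C (-0.071 to 0.018 and -0.033 to 0.040), IL-1β 3 h response at 40 minus 37 °C (-0.21 to 0.20), IL-1β 1 h level at 34 against 37 °C (-0.039 to 0.16), IL-1β change at 34 minus 37 °C (-0.055 to 0.14) and TNF-α against IL-1β at 1 h at 24 and 34 minus 37 °C (-0.12 to 0.072 and -0.064 to 0.13). For Tnfaip3 these were unstimulated 40 against 37 °C (-0.15 to 0.046), IL-1β 3 h response and level at 40 against 37 °C (-0.12 to 0.19 and -0.18 to 0.13), IL-1β change at 34 minus 37 °C (-0.037 to 0.26) and TNF-α against IL-1β at 3 h at 34 minus 37 °C (-0.27 to 0.024). Calls were lost without some libraries for Nfkbia in TNF-α against IL-1β at 3 h and 24 °C (0.54 to 0.63), the 1 h level with IL-1β at 40 against 37 °C (-0.65 to -0.45, without replicate 3 at 37 °C), the TNF-α change at 37 °C (-0.49 to -0.45, without 1 h replicate 3), the TNF-α 1 h response at 40 minus 34 °C (-0.91 to -0.50) and the change with TNF-α minus IL-1β at 40 °C (0.65 to 0.83). For Tnfaip3 they were lost in TNF-α against IL-1β at 1 h, 24 minus 37 °C (-0.81 to -0.62), the TNF-α 3 h level at 24 against 37 °C (0.28 to 0.33), IL-1β at 40 minus 37 °C for the 1 h response and the change (-0.84 to -0.65 and 0.62 to 0.93) and the IL-1β 3 h response at 40 minus 34 °C (-0.77 to -0.52). The ratio at 3 against 1 h with TNF-α lost its call without replicate 3 of every group (-0.31 to -0.23). Calls were gained for Nfkbia in the IL-1β 1 h response at 40 minus 37 °C (-0.89 to -0.48, without replicate 1 of unstimulated 37 °C or 3 of unstimulated 40 °C) and TNF-α against IL-1β at 1 h and 37 °C (0.41 to 0.61, without IL-1β replicate 3), and for Tnfaip3 in the IL-1β 3 h response and level at 34 against 37 °C (0.54 to 0.83 and 0.27 to 0.56, without 37 °C replicate 1).

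The number of genes called moved by over 1.5 times in 71 of 79 comparisons with the compared groups alone, 37 with the nested block and 17 with the replicate block (all upward), 5 with the pseudocount, 3 with no trend, 2 with rescaling and 1 with the filter. Limma called 303 genes for the 1 h response to TNF-α at 37 °C, and 155 on the compared groups alone. At 24 °C the numbers were 17 and 1. Counting error weighs more on low genes than on Nfkbia and Tnfaip3. The estimated depth was lowest on average at 24 °C, and its part in these numbers was not tested.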
